A study of Mus musculus with 3 samples.

Results

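Pou5f1, Sox2 and Nanog are the 3 genes at the core of the transcription factor network that keeps mouse embryonic stem cells undifferentiated. They were chosen by symbol and were found as 3 of the 32285 genes listed in each library. The cells were E14 embryonic stem cells of 129/Ola background, grown in serum with leukaemia inhibitory factor. Treated cells received 10 uM tubercidin, an adenosine analogue, with exposures of 3 h and 6 h. Cells kept 6 h in the solvent, DMSO, were the control. Polyadenylated RNA of single cells was counted with 10x Genomics 3′ barcoding, in 1 library per condition.

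Pou5f1 encodes OCT4, a POU-family factor, and Sox2 encodes an HMG-box factor; the proteins bind side by side to composite DNA elements. Nanog encodes a homeodomain factor that stabilises the undifferentiated state and is known to vary between cells in serum. The 3 proteins occupy the enhancers of their own and each other's genes.

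Because the proteins act on each other's promoters, the bases before the first RefSeq start of each gene are shown, on GRCm38.p6 and the plus strand. The Pou5f1 window stops where the GENCODE transcript begins. Capitals mark matches to the POU motif ATGCAAA, the SOX motif CATTGT or their composite, searched on both strands. The composite is the SOX motif, any base and then the POU motif, so it contains both.

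Pou5f1, chr17:35505782-35506017: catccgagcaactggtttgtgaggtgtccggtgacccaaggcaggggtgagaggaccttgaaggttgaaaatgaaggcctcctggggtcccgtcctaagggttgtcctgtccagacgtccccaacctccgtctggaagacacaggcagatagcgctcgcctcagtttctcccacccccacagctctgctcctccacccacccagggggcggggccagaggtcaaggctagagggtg
Sox2, chr3:34649745-34649994: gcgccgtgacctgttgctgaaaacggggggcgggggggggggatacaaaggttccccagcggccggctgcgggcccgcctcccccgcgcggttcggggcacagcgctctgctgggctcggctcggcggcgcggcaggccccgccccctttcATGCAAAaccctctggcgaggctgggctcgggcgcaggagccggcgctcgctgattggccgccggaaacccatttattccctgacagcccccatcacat
Nanog, chr6:122707239-122707488: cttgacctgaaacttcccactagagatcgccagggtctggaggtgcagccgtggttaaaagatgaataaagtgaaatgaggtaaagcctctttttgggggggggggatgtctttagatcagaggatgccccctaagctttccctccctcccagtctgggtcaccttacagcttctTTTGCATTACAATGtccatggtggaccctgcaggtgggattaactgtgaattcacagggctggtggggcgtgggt

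The Nanog window holds the composite element on the minus strand, from base -75 to base -62 counted from the start. In the 250 bases before 32851 RefSeq starts, the composite occurred in 2 entries (0.00609%), and both are entries of Nanog. The Sox2 window holds a single POU motif at bases -99 to -93, a motif found before 4.12% of the starts, and no SOX motif. The SOX motif stood before 10.7% of starts. None of these letters occurred in the Pou5f1 window, which says nothing about elements farther away. The GC-box letters GGGGCGGGG, not capitalised here, occurred in the Pou5f1 and Sox2 windows and before 10.4% of starts.

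In GENCODE M21 on GRCm38, Pou5f1 spans chr17:35506018-35510772, Sox2 chr3:34650405-34652461 and Nanog chr6:122707489-122714633, all on the plus strand. Sox2 lies inside the long non-coding gene Sox2ot on the same strand, but 0 of its 2057 exonic bases fall in a Sox2ot exon. Gm19553 overlaps Pou5f1 on the minus strand and was at 0.448, 0.368 and 0.972 CPM in the control, 3 h and 6 h libraries. The pseudogenes Nanog-ps1, Nanog-ps2 and Pou5f1-ps are not among the genes counted, so counts of Nanog and Pou5f1 are uncertain where a read fits both copies. The annotated 3′ untranslated regions measure 221 bases for Pou5f1, 1086 for Sox2 and 1078 for Nanog. The AU-rich letters ATTTA occur there 0, 4 and 3 times, and at least once in 70.6% of 7647 expressed coding genes.

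Cells were called as barcodes above a minimum of UMIs (unique molecular identifiers, each standing for 1 captured RNA molecule), and numbered 2031 (control), 2365 (3 h) and 2926 (6 h). The median cell held 48452, 11877 and 8004.5 UMIs, and the summed cells 104892739, 29892000 and 24681924. Each pair of libraries shared 1 cell barcode. The 10 stem cell markers, which include Pou5f1, Sox2 and Nanog themselves, summed to 4493, 5244 and 3845 CPM. Dppa5a made up most of each sum, at 2549, 3555 and 2263 CPM, and the other members went in both directions at 3 h. Summed markers of primitive endoderm (16.3, 10.2 and 18.8 CPM) and trophoblast (16.6, 11.3 and 14.3 CPM) were low. So were those of fibroblasts (1.65, 1.84 and 2.67 CPM) and 2-cell-like cells (0.0477, 0.0669 and 1.13 CPM), the latter highest at 6 h. Only 8 of the 10 listed 2-cell-like markers were found, and 5, 7 and 3 of them were at 0 in the control, 3 h and 6 h libraries. Of these lists, Zscan4b, Zscan4c and Zscan4f were at 0 in every library. A list of 7 neural or epiblast markers summed to 121, 158 and 114 CPM, and its Fgf5 was at 0 in the control. This sum does not stand for each gene of the kind. Sox1 was at 3.66, 1.57 and 0.932 CPM and Nes at 4.16, 1.91 and 2.51 CPM. Pax6, Otx2 and Pou3f1 were also below the control in both treated libraries, whereas Fgf5 rose to 0.0669 and 0.162 CPM. The genes named here make up a small part of each sum. The remaining member of the list, not given here, makes up most of it. The higher sum at 3 h comes from that member and is therefore not read as a rise of neural or epiblast genes as a group. With 1 library per condition no difference was tested. Intervals are exact 95% intervals for counting error and do not describe how far another culture would differ, and the 3 h library has no DMSO control of its own duration.

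The first comparison concerned the level of each gene in the cells of a library, as CPM, UMIs of the gene scaled to a common total for every library. CPM are counts of 3′ ends not divided by gene length, so levels are compared between libraries and not between genes. Pou5f1 stood higher in both treated libraries, Sox2 stood lower by more than 2-fold in both, and Nanog stood lower in both by less than 2-fold. The 3 genes therefore did not share a direction relative to the library total.

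Pou5f1 (ENSMUSG00000024406) was at 137 CPM in the control (14405 UMIs, interval 135 to 140), 159 CPM at 3 h (4759 UMIs, 155 to 164) and 213 CPM at 6 h (5260 UMIs, 207 to 219). No interval overlapped another, and the order was control, 3 h, 6 h. The log2 ratio of CPM + 1 to the control was 0.21 at 3 h and 0.63 at 6 h, with counting intervals of the plain log2 ratio from 0.17 to 0.26 and from 0.59 to 0.68. Of the 7884 genes averaging at least 10 CPM over the libraries, 85.4% had a lower log2 ratio than Pou5f1 at 3 h and 93.6% at 6 h. The median gene stood at -0.27 and -0.12.

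Sox2 (ENSMUSG00000074637) was at 205 CPM in the control (21497 UMIs, interval 202 to 208), 80.6 CPM at 3 h (2409 UMIs, 77.4 to 83.9) and 81.1 CPM at 6 h (2001 UMIs, 77.6 to 84.7). The control stood apart from both treated libraries, whose intervals overlapped almost entirely. Its log2 ratio was -1.34 at 3 h (interval -1.41 to -1.29) and -1.33 at 6 h (-1.40 to -1.27), that is 2.54-fold and 2.53-fold lower. Between 6 h and 3 h the log2 ratio was 0.01, with an interval from -0.08 to 0.09. Only 1.29% of the 7884 genes had a lower ratio than Sox2 at 3 h and 1.34% at 6 h.

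Nanog (ENSMUSG00000012396) was at 77.4 CPM in the control (8115 UMIs, interval 75.7 to 79.1), 62.4 CPM at 3 h (1864 UMIs, 59.6 to 65.3) and 50.2 CPM at 6 h (1238 UMIs, 47.4 to 53.0). The 3 intervals were separate and the order was the reverse of that of Pou5f1. The log2 ratio was -0.31 at 3 h (interval -0.38 to -0.24) and -0.62 at 6 h (-0.71 to -0.54). At 3 h Nanog lay 0.03 below the median gene, with 46.8% of genes lower. At 6 h it lay 0.50 below it, with 15.5% of genes lower.

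As a background for these sizes, 437 of the 7884 genes were at least 2-fold lower at 3 h (5.54%) and 348 at 6 h (4.41%), and 70 (0.888%) and 184 (2.33%) were at least 2-fold higher. With median-of-ratios factors the 3 h counts were 166 lower (2.11%) and 139 higher (1.76%), and with TMM factors 202 (2.56%) and 126 (1.60%). Of the 3 genes only Sox2 passed 2-fold, downwards, at both times and under both of these scalings. Scaling by median-of-ratios or TMM factors shifts all genes at 3 h by 0.23 or 0.19 and leaves the sign of each gene's ratio to the control as it was, but it brings Nanog at 3 h to -0.069 or -0.12. It also places Sox2 at 6 h below its level at 3 h, by log2 ratios of -0.22 and -0.21.

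UMIs per cell, without any scaling, were lower for all 3 genes in both treated libraries. Pou5f1 averaged 7.09 UMIs in a control cell, 2.01 at 3 h and 1.80 at 6 h. Sox2 averaged 10.6, 1.02 and 0.684, and Nanog 3.996, 0.788 and 0.423. The UMIs of the whole cell were lower too, and less RNA per cell cannot be told apart from shallower sequencing in these files, so the absolute amount of each transcript was not measured.

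**Figure D1:**
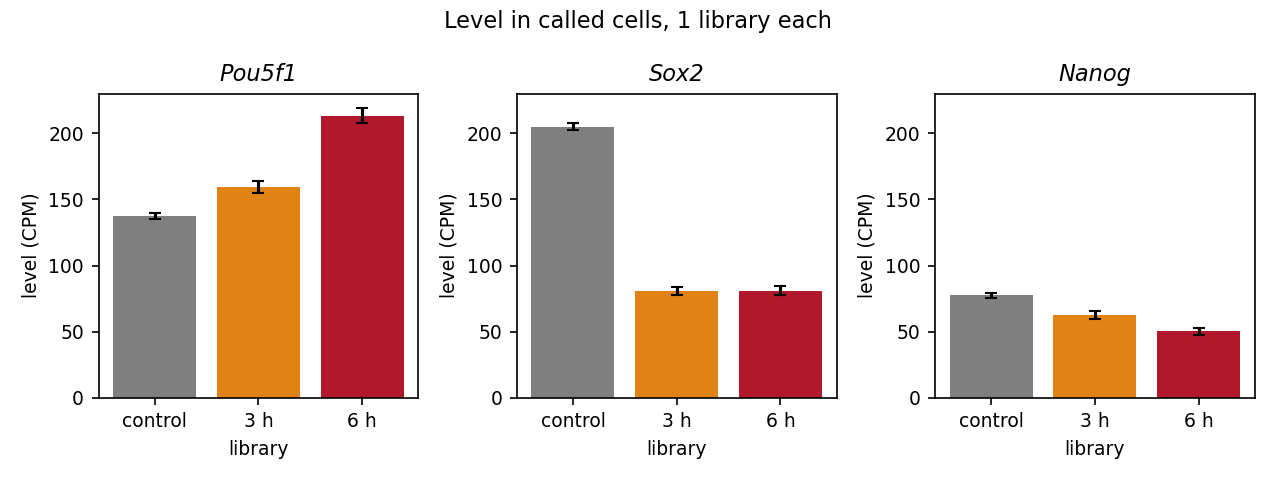
Level of Pou5f1, Sox2 and Nanog in the called cells of each library, in CPM (bars, 1 library each), with exact Poisson intervals for counting error as error bars. The bars read 137, 159 and 213 CPM for Pou5f1, 205, 80.6 and 81.1 CPM for Sox2, and 77.4, 62.4 and 50.2 CPM for Nanog.

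The second comparison set the genes against each other within a library, which no scaling between libraries can alter. Pou5f1 made up 32.7% of the UMIs of the 3 genes in the control (exact binomial interval 32.3 to 33.2%), rather than 52.7% after 3 h (51.7 to 53.7%) or 61.9% after 6 h (60.8 to 62.9%). Sox2 made up 48.8%, 26.7% and 23.5% in the same order, and Nanog 18.4%, 20.6% and 14.6%. Pou5f1 thus took a larger share in each treated library and Sox2 a smaller one, while Nanog's share was above the control at 3 h and below it at 6 h. The ratio of Pou5f1 to Sox2 UMIs was 2.95 times that of the control at 3 h and 3.92 times at 6 h. For Pou5f1 to Nanog these factors were 1.44 and 2.39, and for Nanog to Sox2 2.05 and 1.64. A shift of shares shows unequal change and does not tell which gene's amount per cell changed.

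**Figure D2:**
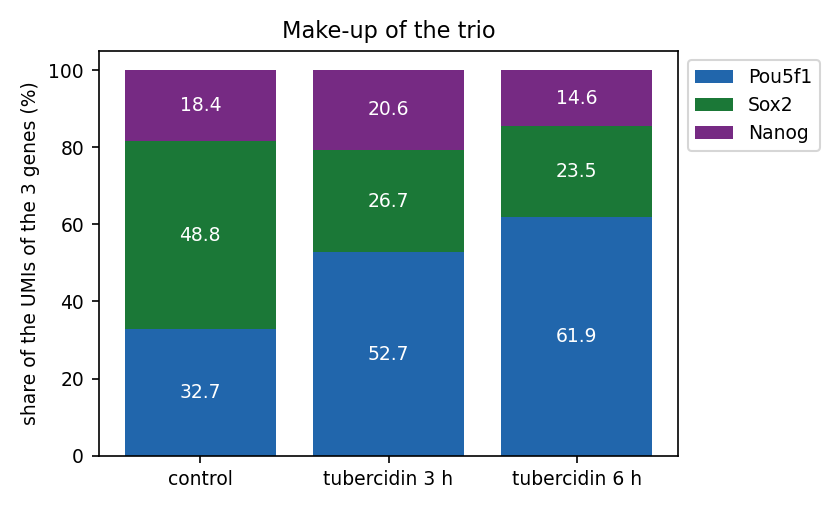
Share of each gene in the summed UMIs of Pou5f1, Sox2 and Nanog (stacked bars, in percent) in the called cells of the 3 libraries. The Pou5f1 share goes from 32.7% in the control to 52.7% at 3 h and 61.9% at 6 h.

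The same order appeared inside single cells when every cell was thinned to 4000 UMIs, drawn without replacement. Cells with fewer UMIs were left out, which removed 122 from the 3 h library, 284 from the 6 h library and 0 from the control. Among control cells with unequal numbers of Pou5f1 and Sox2 UMIs, 38.0% held more Pou5f1 (461 against 753 cells, interval 35.2 to 40.8%). At 3 h this share was 72.1% (877 against 340 cells, 69.4 to 74.6%) and at 6 h 78.2% (1256 against 350 cells, 76.1 to 80.2%). Cells with more Nanog than Pou5f1 numbered 308, 296 and 221 in the same order, against 662, 915 and 1322 with more Pou5f1.

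The third comparison concerned detection, the share of cells with at least 1 UMI of a gene at equal depth. Pou5f1 was detected in 41.1% of the thinned control cells (834 of 2031, interval 38.9 to 43.2%), 47.6% at 3 h (1067 of 2243, 45.5 to 49.7%) and 57.0% at 6 h (1506 of 2642, 55.1 to 58.9%). For Sox2 the shares were 52.7% (1071 cells, 50.5 to 54.9%), 25.5% (572 cells, 23.7 to 27.4%) and 25.7% (678 cells, 24.0 to 27.4%). Nanog was detected in 24.8% (503 cells, 22.9 to 26.7%), 21.4% (479 cells, 19.7 to 23.1%) and 16.8% (443 cells, 15.4 to 18.2%). Detection thus followed the order of the levels.

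Over 20 further draws of the thinning the Pou5f1 share ranged from 38.5 to 42.2% in the control, from 44.0 to 47.1% at 3 h and from 54.7 to 57.7% at 6 h, without overlap. The 47.6% given above for 3 h lies just over its range, and at a depth of 2000 UMIs the Pou5f1 share was 24.5% both in the control and at 3 h, so the 3 h difference in detection is small and depends on the draw and depth. The Sox2 ranges were 50.9 to 55.1%, 24.3 to 27.0% and 25.02 to 27.6%. For Nanog the control range, 21.9 to 27.4%, overlapped that at 3 h, 19.9 to 22.8%, so a Nanog difference at 3 h was not resolved by detection, whereas the 6 h range, 16.3 to 18.1%, lay below both.

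Without thinning, nearly every control cell held a UMI of Pou5f1 (98.5%) and Sox2 (99.4%), and 89.1% held Nanog. The unthinned shares were 77.9%, 54.3% and 48.9% at 3 h and 76.6%, 43.3% and 31.6% at 6 h for the same genes. Pou5f1 thus stands below the control without thinning and above it at equal depth, and only the latter compares like with like.

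No cell type lacking these genes was called in the libraries, so the level of free RNA was taken from barcodes ranked well after the last cell by UMIs, ending at rank 15000. Those between the cells and these barcodes were not used. Control, 3 h and 6 h levels there were 108, 200.2 and 227 CPM for Pou5f1, 157, 54.7 and 64.4 CPM for Sox2, and 59.4, 43.0 and 41.0 CPM for Nanog. If 10% of a thinned cell's UMIs were free RNA, 4.23% of control cells, 7.70% at 3 h and 8.68% at 6 h would hold a Pou5f1 UMI from it. For Sox2 these shares were 6.09%, 2.17% and 2.54%, and for Nanog 2.35%, 1.71% and 1.63%. Subtracting it at 10% of UMIs put the Pou5f1 log2 ratio at 3 h at 0.16 and kept the sign of every ratio to the control.

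**Figure D3:**
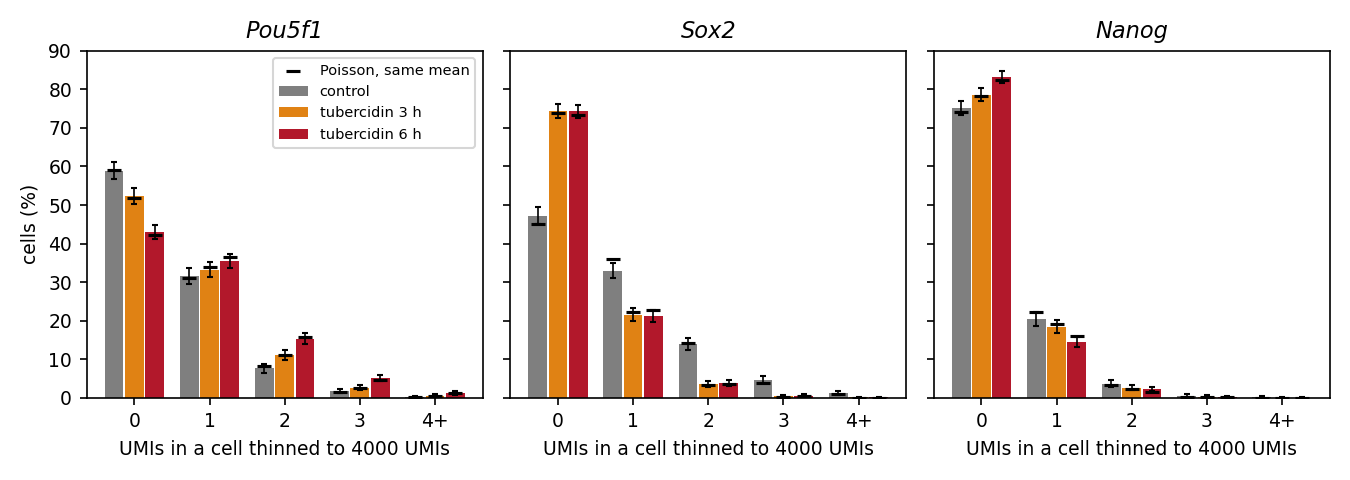
Cells (percent of each library) by their number of Pou5f1, Sox2 or Nanog UMIs after thinning to 4000 UMIs, with Clopper-Pearson intervals as error bars and black dashes for a Poisson distribution of the same mean. For Sox2 the share of cells without a UMI is 47.3% for control cells but 74.5% after 3 h and 74.3% after 6 h.

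Spread between cells was described by the Fano factor, the variance of UMIs over cells divided by their mean, which is 1 for pure counting noise. At 4000 UMIs it was 0.99, 1.03 and 1.04 for Pou5f1 in the control, 3 h and 6 h, 1.11, 1.06 and 1.09 for Sox2, and 1.12, 1.04 and 1.09 for Nanog. The median over all genes with a mean of at least 0.1 UMI was 1.04, 1.05 and 1.05. Over the 20 further draws the factors ranged from 1.00 to 1.12, 0.98 to 1.10 and 1.01 to 1.11 for Pou5f1, from 1.05 to 1.18, 1.05 to 1.18 and 1.06 to 1.16 for Sox2, and from 1.03 to 1.16, 1.00 to 1.15 and 1.04 to 1.13 for Nanog. These ranges overlap between libraries for each gene, so no order of the libraries by spread is drawn.

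The control library is deep enough to show more. Thinned to 33000 UMIs, its 1840 cells that reached this depth held a median of 4 Pou5f1 UMIs (10th to 90th percentile 2 to 8, at most 20), 6 Sox2 UMIs (3 to 12, at most 22) and 2 Nanog UMIs (0 to 5, at most 15). The Fano factors were 1.30 for Pou5f1, 1.91 for Sox2 and 1.79 for Nanog. Of 583 genes of similar mean 64.7% lay below Pou5f1, of 403 such genes 91.6% lay below Sox2, and of 1033 such genes 94.8% lay below Nanog. Variance beyond counting noise, relative to the squared mean, was 0.0659 for Pou5f1, 0.134 for Sox2 and 0.314 for Nanog. Nanog was without a UMI in 16.4% of these cells, against 8.01% for a Poisson distribution of the same mean, and detected in 83.6% (interval 81.9 to 85.3%). In this library Pou5f1 was therefore the most even of the 3 and Nanog the most uneven by this measure.

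**Figure D4:**
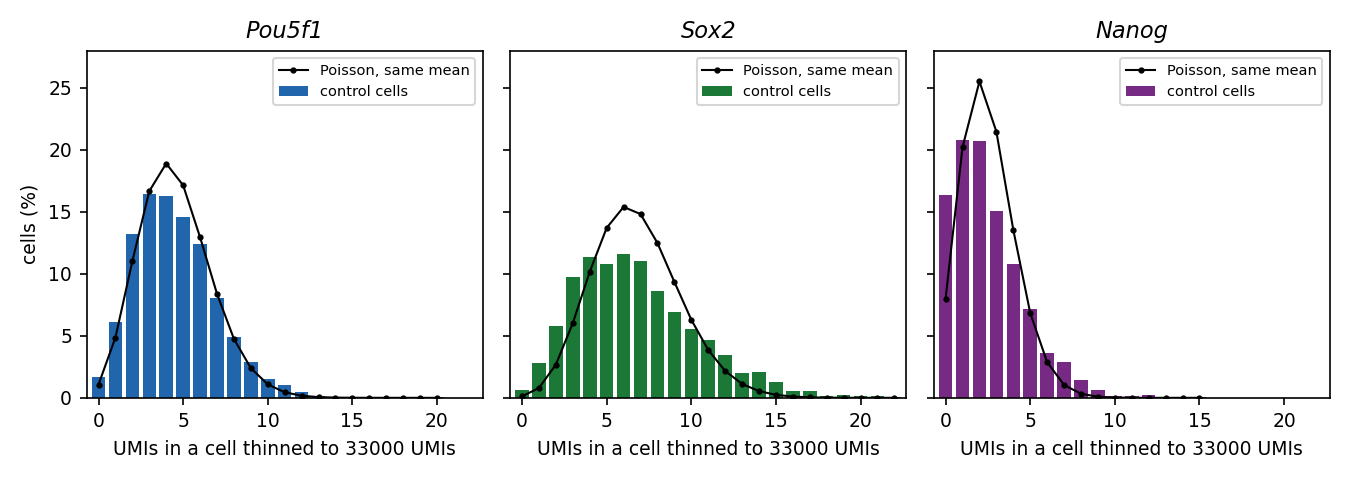
Control cells (percent of 1840 cells) by their number of Pou5f1, Sox2 or Nanog UMIs after thinning to 33000 UMIs, with a Poisson distribution of the same mean as dots and line. Sox2 and Nanog spread more widely than the line, with Fano factors of 1.91 and 1.79 against 1.30 for Pou5f1.

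Co-detection asked whether the genes appear in the same cells at equal depth. At 4000 UMIs all 3 were detected in 5.86% of control cells (119 cells, interval 4.88 to 6.97%), 2.14% at 3 h (48 cells, 1.58 to 2.83%) and 2.57% at 6 h (68 cells, 2.00 to 3.25%). The product of the single shares was 5.36%, 2.59% and 2.45%, inside the interval in each library. None of the 3 was detected in 21.8%, 29.7% and 26.1% of cells, where the product gave 21.0%, 30.7% and 26.6%. The lower share of cells with all 3 genes in the treated libraries therefore accompanied the single shares, with no departure from independence detectable at this depth.

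The combination with the largest gain was Pou5f1 without the others, at 14.1% of control cells (287 cells, 12.6 to 15.7%), 28.9% at 3 h (649 cells, 27.1 to 30.9%) and 35.8% at 6 h (945 cells, 33.9 to 37.6%). Sox2 alone was found in 23.0%, 10.6% and 9.69% of cells, Nanog alone in 6.50%, 8.69% and 5.45%, Pou5f1 with Sox2 in 16.2%, 9.36% and 11.7%, Pou5f1 with Nanog in 4.83%, 7.13% and 7.002%, and Sox2 with Nanog in 7.58%, 3.39% and 1.74%. For each pair in each library the observed share of cells with both genes was between 0.913 and 1.05 times the product of the single shares, and the product lay inside the interval of the observed share.

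At 8000 UMIs, which 2031, 1941 and 1464 cells reached, all 3 genes were found together in 22.3% of control cells, 11.6% at 3 h and 11.1% at 6 h, against products of 20.7%, 11.2% and 11.0%. At 33000 UMIs 81.8% of control cells held all 3 (1506 of 1840, interval 80.0 to 83.6%) and 15.9% held Pou5f1 and Sox2 without Nanog (292 cells). None of the cells lacked all 3, which with 0 of 1840 cells allows a share of up to 0.163% by a limit of 3 counts. If 10% of UMIs at this depth were free RNA, 30.0% of cells would hold a Pou5f1 UMI from it, 40.4% a Sox2 UMI and 17.8% a Nanog UMI, so a single UMI here is not read as expression.

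Pearson correlations over these 1840 control cells, on the log of 1 + UMIs, were 0.0121 between Pou5f1 and Sox2, 0.0575 between Pou5f1 and Nanog and 0.0555 between Sox2 and Nanog. They are descriptions over cells of 1 library, which share its depth and handling, and values this weak are no finding. Cells were also split by UMIs of a gene. In the 499 cells with at least 4 Nanog UMIs, Pou5f1 was at 140 CPM and Sox2 at 211 CPM, against 133 and 199.5 CPM in the 683 cells with at most 1. Between the 509 cells with at least 9 and the 557 cells with at most 4 Sox2 UMIs, Pou5f1 differed by a factor of 1.00 and Nanog by 1.09. At a Fano factor of 1.30 most of the Pou5f1 variance is of the size of counting noise, so these values do not show how closely the genes varied together.

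Other genes were then ranked by their correlation with each member over the same cells, so those at the top exceed the pairs above by selection. In correlation with Nanog, 90.7% of the ranked genes lay below Pou5f1 and 90.1% below Sox2. With Pou5f1, 84.9% lay below Nanog and 47.9% below Sox2. With Sox2, 90.7% lay below Nanog and 62.8% below Pou5f1. Of the 3064 genes averaging at least 50 CPM, those with the highest correlation with Nanog over the control cells were Zfp42 (r = 0.31), Tbx3 (0.24), Klf2 (0.23), Jam2 (0.22) and Esrrb (0.21). Zfp42, Tbx3, Klf2 and Esrrb encode transcription regulators of the naive state, and Jam2 a junctional adhesion molecule. The 99th percentile over all these genes was 0.14. Zfp42 was at 820 CPM in the cells with at least 4 Nanog UMIs and 614 CPM in those with at most 1, and Tbx3 at 109 and 70.4 CPM. Both genes were picked on these same cells, so their values restate the ranking and add no support to it. Of 15 genes on a naive-state list, 14 were higher in the Nanog-rich cells, with a median ratio of 1.31, where 54.8% of all 7883 genes were higher and their median ratio was 1.01. The same split gave 13 of 15 genes and a median ratio of 1.10 for Pou5f1 (all genes 62.5% and 1.02), and 12 of 15 and 1.10 for Sox2 (all genes 51.9% and 1.00).

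For Sox2 the highest correlations were with the replication-dependent histone genes Hist1h1e (r = 0.26), Hist1h4d (0.23), Hist1h1b (0.23) and Hist1h2ap (0.22), whose transcripts are made in S phase, and with Zfp42 (0.22). The lowest were those of Cdc20 (-0.22), an activator of the anaphase-promoting complex, Hspa5 (-0.21) and Ube2s (-0.19). Hist1h1e was at 189 CPM in the Sox2-rich and 120.0 CPM in the Sox2-poor control cells, and Cdc20 at 133 and 188 CPM, which again restates the ranking. Nanog had its lowest values with histone genes, Hist1h2ap (-0.15) and Hist1h1b (-0.13), and with Tomm20 (-0.14). Histone genes come as near-identical copies and their messages are largely not polyadenylated, which makes their counts uncertain. For Pou5f1 the highest values were those of Hnrnpa3 (0.18), L1td1 (0.18), Hirip3 (0.17), Tet2 (0.16) and Hnrnpf (0.16), and the lowest those of Cox4i1 (-0.19), Rpl18 (-0.18) and Rps15a (-0.18).

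These genes were picked on control cells, so the treated libraries give a separate view at 4000 UMIs. Zfp42 was higher in cells with a Nanog UMI than in cells without at both times, at 479 against 423 CPM at 3 h (intervals 448 to 511 and 408 to 438) and 485 against 436 CPM at 6 h (453 to 519 and 422 to 450). Jam2 was at 65.8 against 48.2 CPM at 3 h (54.8 to 78.3 and 43.2 to 53.6) and at 63.8 against 51.7 CPM at 6 h, where the intervals overlapped. Esrrb was at 136 against 137 CPM at 3 h and 191 against 183 CPM at 6 h, within counting error. Tbx3 was higher in Nanog-positive cells at both times, at 28.7 against 25.1 CPM and 40.6 against 35.7 CPM. Klf2 was higher in them at 3 h, at 94.99 against 85.3 CPM, and lower at 6 h, at 37.8 against 38.995 CPM. The intervals of Tbx3 and Klf2 overlapped at both times. Sox2-positive cells at 3 h had 22.3 CPM of Hist1h1e, against 33.1 CPM in Sox2-negative cells, the opposite order of the control, with overlapping intervals (16.6 to 29.3 and 28.8 to 37.7). At 6 h the order was that of the control, at 57.9 CPM (49.2 to 67.7) against 47.7 CPM (43.0 to 52.8), also with overlapping intervals. Hist1h4d was lower in Sox2-positive cells at both times, at 62.5 against 74.5 CPM and 170 against 178 CPM. Hist1h2ap was higher at both, at 42.0 against 38.0 CPM and 17.3 against 14.9 CPM. Hist1h1b was at 150 against 155 CPM at 3 h and 422 against 387 CPM at 6 h. The intervals of these histone genes overlapped too. In the control at 4000 UMIs, 9 of 13 naive-state genes were higher in Pou5f1-positive cells, 9 in Sox2-positive and 12 in Nanog-positive cells. Of all genes 52.6%, 51.3% and 48.1% were higher there. On the same list, 4 of 12 genes were higher in Pou5f1-positive cells at 3 h (median ratio 0.943, where 38.5% of all genes were higher) and 5 of 12 at 6 h (0.989, where 50.2% were). For Nanog 9 of 12 were higher at each time, with 49.7% and 49.9% of all genes, and for Sox2 9 and 10 of 12, with 50.6% and 57.2%. Zfp42 was also higher in Sox2-positive cells, at 470 against 423 CPM at 3 h and 484 against 431 CPM at 6 h. For the 5 genes with the highest control correlation with Pou5f1, the intervals of cells with and without a Pou5f1 UMI overlapped at 3 h, and at 6 h those of Hnrnpa3 did not (766 CPM, 744 to 788, against 713 CPM, 689 to 738). Rpl18 and Rps15a, among the lowest in the control, were higher in Pou5f1-positive cells at 3 h, at 4039 against 3914 CPM and 5012 against 4803 CPM, without overlap of the intervals. At 6 h both were lower in Pou5f1-positive cells, at 3113 against 3150 CPM and 4031 against 4130 CPM, with overlapping intervals. Cox4i1 was at 2714 against 2713 CPM at 3 h and 2799 against 2883 CPM at 6 h, also with overlapping intervals.

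Levels were next set against the total UMIs of the cell, with each library divided by it into 4 groups of cells. Pou5f1 ranged over these groups from 131 to 141 CPM in the control, 137 to 167 CPM at 3 h and 192 to 223 CPM at 6 h. Sox2 ranged from 184 to 226, 67.1 to 94.9 and 68.4 to 87.7 CPM, and Nanog from 69.9 to 83.6, 54.8 to 70.6 and 41.2 to 55.2 CPM. For Sox2 every treated group was below every control group. For Pou5f1 every group at 6 h was above every control group, while the group with the fewest UMIs at 3 h, at 137 CPM, lay within the control's range. For Nanog the group with the fewest UMIs at 3 h, at 70.6 CPM, also lay within the control's range.

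Cells with over 10% mitochondrial UMIs, 26 (control), 124 (3 h) and 50 (6 h), had fewer UMIs, with medians of 13515.5, 3816.5 and 2421. At 3 h their Pou5f1 level was 49.8 CPM (interval 32.2 to 73.5) against 161 CPM (157 to 166) in the other cells, and at 6 h 30.8 CPM (8.40 to 78.9) against 214 CPM (208 to 220). Sox2 in the same cells was at 63.7 CPM (43.6 to 89.9) against 80.9 CPM at 3 h and 84.8 CPM (42.3 to 152) against 81.1 CPM at 6 h. Nanog was at 89.6 CPM (65.3 to 120) against 61.9 CPM at 3 h and 77.1 CPM (37.0 to 142) against 50.02 CPM at 6 h. Pou5f1 was thus lower beyond counting error in the mitochondria-rich cells of both treated libraries, Nanog was higher in those at 3 h, and the Sox2 intervals overlapped. In the mitochondria-rich control cells Pou5f1 was at 111 CPM (80.3 to 151) against 137 CPM and Nanog at 82.3 CPM (55.9 to 117) against 77.3 CPM, with overlapping intervals. Sox2 was lower there beyond counting error, at 151 CPM (115 to 196) against 205 CPM (202 to 208). The part of depth and free RNA in this was not tested.

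The neighbours of the genes were read for comparison. Sox2ot was at 37.8 CPM in the DMSO library, 25.2 CPM after 3 h and 44.3 CPM after 6 h, log2 ratios of -0.56 and 0.23, so it stood above the control at 6 h where Sox2 stood below. Tcf19, which faces the end of Pou5f1 at a distance of 1961 bases, was at 7.37, 3.35 and 3.93 CPM. Slc2a3, a glucose transporter gene 13175 bases past Nanog on the other strand, was at 133, 138 and 118 CPM.

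Genes of the wider network were taken from lists and are described by their numbers past 2-fold among members at a mean of at least 10 CPM. Of 24 such partner transcription factors, 5 were at least 2-fold lower at 3 h (background 5.54%), 5 at 6 h (background 4.41%), and 0 were higher at either time. The median log2 ratios were -0.43 and -0.34. Among those lower at both times were Zfp281, a zinc finger factor that binds the core proteins (-1.41 and -1.71), Klf2 (-1.36 and -2.52) and Tbx3 (-1.77 and -1.24). Tcf7l1, a repressor of the network at the end of Wnt signalling, passed 2-fold at 3 h only (-1.03 and -0.62), but not with median-of-ratios (-0.79) or TMM factors (-0.84), which leave 3 of the 24 factors past 2-fold at 3 h, and Klf4 at 6 h only (-0.48 and -1.21). Foxd3, below 10 CPM, had log2 ratios of -0.66 and -2.03. The highest at 6 h were Esrrb, an orphan nuclear receptor (0.35 and 0.92), and Tfcp2l1 (-0.19 and 0.40).

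Of 21 genes known as targets shared by the core factors, 2 were at least 2-fold lower at each time and 1 was higher at 6 h. With backgrounds of 5.54% and 4.41% lower and 2.33% higher, counts this small are not read as particular to the list. Fgf4, the textbook target of OCT4 with SOX2 and the main differentiation signal of these cells, was at 85.9 CPM in the DMSO library, 22.9 CPM after 3 h and 35.1 CPM after 6 h, with log2 ratios of -1.86 and -1.27. Nodal, a ligand of the TGF-beta family, had log2 ratios of -1.02 and -0.98, the former -0.80 by median-of-ratios and -0.84 by TMM scaling, and Mycn, a MYC-family factor, of -0.68 and -1.66. Lefty2, an inhibitor of Nodal signalling, was at 7.76, 15.6 and 16.6 CPM, with log2 ratios of 0.92 and 1.00, the latter 0.97 with TMM factors. Dppa4 had 0.42 and 0.55. The median of the list was 0.12 at 3 h and -0.15 at 6 h. Of 22 targets at a mean of at least 1 CPM, 12 stood above and 10 below the control at 3 h, and 6 above and 16 below at 6 h.

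**Figure D5:**
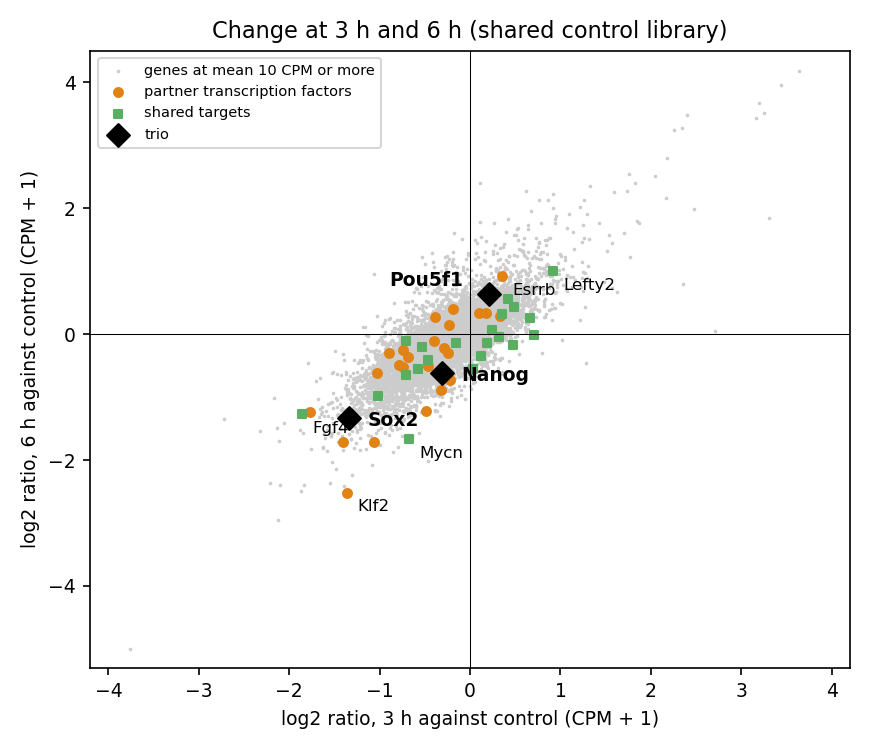
Log2 ratios of CPM + 1 to the control at 3 h (x axis) and 6 h (y axis) for the 7884 genes at a mean of at least 10 CPM (grey), with the trio (black diamonds), partner transcription factors (orange circles) and shared targets (green squares) marked. Both axes share the control library; Sox2 lies at -1.34 and -1.33, Nanog at -0.31 and -0.62 and Pou5f1 at 0.21 and 0.63.

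Of 19 coactivators that work with the core factors at enhancers, 1 was at least 2-fold lower at 3 h and 1 at 6 h, near the background of 5.54% and 4.41%. Nipbl, which loads cohesin, had log2 ratios of -1.06 and -0.54, and Thap11 of -0.59 and -1.01. Median-of-ratios factors end both calls, at -0.82 for Nipbl at 3 h and -0.99 for Thap11 at 6 h, and TMM factors that of Nipbl, at -0.87. Smarca4, the ATPase of the BAF complex, stood at 0.12 and 0.61 and Med1 of Mediator at -0.06 and 0.42. The list medians were -0.38 and 0.04. Of 16 repressors and turnover factors 0 passed 2-fold against the control, a count that the backgrounds of 5.54% and 4.41% lower leave uninformative, with medians of -0.17 and 0.11. The ubiquitin ligase gene Wwp2, whose product is known to target OCT4, stood at 0.18 and 0.64, the RNA-binding factor gene Lin28a at 0.54 and 0.67, and Mta1 of the NuRD complex at -0.49 and -0.72. Trim32, below 10 CPM, stood at -0.87 and -1.02.

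Most relatives of the core factors were low. Of 21 POU and SOX genes, 13 had a mean of at least 1 CPM and 2 reached 10 CPM, Pou2f1 (97.7, 59.8 and 82.9 CPM) and Sox12 (16.4, 17.5 and 17.8 CPM). The SoxB1 relative Sox1 was at 3.66, 1.57 and 0.932 CPM and Sox21 at 2.94, 1.14 and 0.527 CPM, with log2 ratios at 6 h of -1.27 and -1.37. Pou4f1 (-1.02 and -1.01) and Pou3f1 (-0.68 and -1.12) also passed 2-fold below 10 CPM. Sox15, which resembles Sox2 in its binding, was at 3.09, 4.78 and 5.67 CPM and Sox5 at 1.11, 1.17 and 2.11 CPM.

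The naive-state list, which shares several genes with the partners and targets, had 4 of 13 genes at least 2-fold lower at 3 h (background 5.54%) and 5 at 6 h (background 4.41%), with medians of -0.70 and -0.65. Gbx2 had log2 ratios of -1.87 and -2.49. Of 5 genes of primed or differentiating cells at this level, 1 was 2-fold lower at 3 h (background 5.54%) and 2 at 6 h (background 4.41%). These were Id1 (-1.58 and -1.86) and Id3 (-0.46 and -2.02), inhibitors of differentiation known as BMP targets. The calls of this list are therefore not read as a fall of differentiation genes. Dnmt3b, also at this level, stood at -0.56 and -0.41. Krt8 and Krt18 stood at 0.42 and 0.63 at 3 h and at 0.40 and 0.41 at 6 h. Markers such as T, Otx2, Foxa2, Eomes and Fgf5 stayed under a mean of 1 CPM.

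The genes whose pair of log2 ratios lay nearest to each member, among 3064 genes over 3 libraries, were Abcf1, Emc10 and Sppl3 for Pou5f1, at distances of 0.0080, 0.022 and 0.022. For Sox2 they were Sgo1, a protector of sister chromatid cohesion (0.050), AA465934 (0.058) and the histone gene Hist1h1a (0.13). For Nanog they were Tsg101, Nudt21 and Paics (0.018, 0.030 and 0.035). Sgo1 was at 85.8, 34.4 and 34.3 CPM, against 205, 80.6 and 81.1 CPM for Sox2. A likeness over 3 libraries is a description and many genes share such a pair of ratios.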

How the data were processed

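The authors deposited UMI counts for every barcode, not normalized. Per the file headers the counting software was Cell Ranger 7.1.0, and per the submitters' processing notes the build was mm10. The annotation and the counting of intronic reads are not given in the sources used here. All barcodes were deposited. To count as a cell a barcode needed 500 genes, no more than 20% mitochondrial UMIs, and a UMI total reaching 0.1 times the 99th percentile among the 3000 largest. Doublets were kept.

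UMIs were summed over cells and scaled to CPM. Log2 ratios used a pseudocount of 1 CPM, which understates changes of low genes. Ratio intervals were conditional binomial, level intervals Poisson and share intervals Clopper-Pearson, all exact at 95%. No test was possible with 1 library per group and none was run. The members and lists were chosen with earlier results of these data known. Named genes were all members, the 2 highest and 2 lowest log2 ratios of each list at 6 h above a mean of 1 CPM, list genes past 2-fold, the 3 nearest genes by ratio, and the 5 highest correlates; the 3 lowest correlates, gene neighbours the splits of cells by a member's UMIs with their shares over all genes, the lists under other scalings and the free RNA share at 33000 UMIs were added after the values were seen. On simulated data with 200 of 7884 genes changed 4-fold, 100% (3 h) and 99.5% (6 h) were recovered and 95.1% and 94.9% of intervals held the true ratio. The simulated counts held Poisson noise only, without variation between cultures. This checks the calculation and not whether a change would recur in another culture. Promoter sequences came from RefSeq (GRCm38.p6), where all 3 members were matched, and gene positions from GENCODE M21. TMM factors came from edgeR 4.0.16 in R 4.3.3, intervals from scipy 1.17.1 under Python 3.11.15. Values of 1 list gene are not reported here.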

Additional observations from a re-analysis of the deposited data

Results flagged for a closer look

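UMIs outside the called cells enter none of the comparisons, and Pou5f1 stood higher there in the treated libraries than in the control. Over all barcodes not called as cells it was at 146 CPM in the control (interval 139 to 153), 190 CPM at 3 h (189.5, interval 178 to 201) and 256 CPM at 6 h (255.8, interval 242 to 271). Of all Pou5f1 UMIs, 9.82%, 17.9% and 18.5% lay outside cells, where 9.31%, 15.5% and 15.9% of all UMIs lay, against 7.03%, 12.05% and 12.2% for Sox2 and 7.66%, 13.1% and 15.1% for Nanog. The levels outside cells were 151, 60.2 and 59.3 CPM for Sox2 and 62.5, 51.1 and 47.3 CPM for Nanog. The order of the libraries there was that of the called cells for Pou5f1. Sox2 and Nanog stood below the control in both treated libraries. Their 3 h and 6 h intervals overlapped, at 53.9 to 67.0 and 52.5 to 66.7 for Sox2 and 45.3 to 57.4 and 41.3 to 54.0 for Nanog.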

How the results depend on the processing

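No paired analysis was possible because each condition has 1 library. For the ratios to the control and the Pou5f1 share of UMIs, the cell minimum, the mitochondrial limit, removal of cells with many UMIs, equal weight per cell, a pseudocount of 0.1 CPM and leaving out mitochondrial genes moved no value out of its counting interval. Median-of-ratios factors gave at 3 h 0.45 for Pou5f1, -1.10 for Sox2 and -0.069 for Nanog, and TMM factors 0.40, -1.15 and -0.12. UMIs per cell without scaling, which lower nearly every gene, gave -1.79, -3.31 and -2.27 at 3 h and -1.95, -3.85 and -3.09 at 6 h, and -0.16 for Pou5f1 between 6 h and 3 h, which reverses Pou5f1. Subtracting free RNA gave 0.16 for Pou5f1 at 3 h and a Pou5f1 share of 51.1%. Between 6 h and 3 h Sox2, whose interval included 0, stood at -0.22 with median-of-ratios and -0.21 with TMM factors, and Pou5f1 at 0.19 and 0.20.

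Genes at least 2-fold higher and lower at 3 h numbered 139 and 166 with median-of-ratios factors, 126 and 202 with TMM factors, 6 and 7785 with UMIs per cell, 22 and 95 from a mean of 50 CPM, and 226 and 855 without a filter. At 6 h they numbered 6 and 7818 with UMIs per cell, 42 and 75 from 50 CPM, and 679 and 707 without a filter.

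Detection depends on depth by construction. At 2000 UMIs the control, 3 h and 6 h shares were 24.5, 24.5 and 33.5% for Pou5f1, 32.2, 13.9 and 14.5% for Sox2, 13.5, 10.6 and 9.95% for Nanog and 0.689, 0.465 and 0.478% for all 3. At 8000 UMIs they were 63.7, 70.4 and 82.0%, 77.1, 43.6 and 43.9%, 42.1, 36.5 and 30.6%, and 22.3, 11.6 and 11.1%. At 2000 UMIs, where no cell is left out, Pou5f1 at 3 h thus equalled the control. Among the further draws at 4000 UMIs the lowest Pou5f1 shares were 38.5, 44.0 and 54.7%, the highest Sox2 shares 55.1% in the control and 27.6% at 6 h, the Nanog extremes in the control 21.9 and 27.4%, and those for all 3 genes 4.63% (lowest, control) and 2.94% (highest, 3 h).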
